A study of Homo sapiens with 9 samples.

Results

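NRF2 (gene NFE2L2) is the transcription factor that turns on antioxidant, glutathione and detoxification genes. Its transcript and those of its relative NRF1 (NFE2L1), of the ligase parts that hold it down (KEAP1 and CUL3), of its competitor BACH1, of the small MAF partners MAFF, MAFG and MAFK, and of the target genes OSGIN1 and NQO1 were followed here. The members are the 10 rows of the deposited table, out of 62710 genes, that carry these gene names. All 10 passed the filter on low values, a mean of at least 10 normalized counts over all libraries.

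The cells were A375R, a human melanoma line that resists the BRAF inhibitor PLX4032 (a vemurafenib analog) and is grown with it, so that every group shares this drug. For 2 h they received DMSO (the solvent control), VHL-r at 10 µM or R4VPL3-1 at the same 10 µM, with 3 libraries per treatment and 9 in all, which the study's methods describe as independent biological repeats of this single line. R4VPL3-1 joins a moiety that binds the ubiquitin ligase RNF4 to one that binds the ubiquitin ligase VHL, and VHL-r is the VHL-binding moiety alone, so the difference between the compounds is the RNF4-binding end with its linker. The sample labels call the controls wild type and give no dose or time. That they received DMSO comes from the series design and the methods. The column headers of the deposited values give 2 h for the controls except DMSO replicate 1, whose time was taken to be the same.

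In unstressed cells the adaptor KEAP1 and the scaffold CUL3 place ubiquitin on NRF2, which the proteasome then removes, and oxidants or electrophiles that modify KEAP1 let NRF2 accumulate without any need for more NFE2L2 transcript. NRF2 binds DNA only with a small MAF protein as partner, at antioxidant response elements. BACH1 pairs with the same small MAF proteins and represses many of the same genes, until heme or oxidants release it. Small MAF proteins lack a region for activating transcription, so pairs made of them alone repress. NRF2 protein was not measured in these libraries, and each value below is of RNA.

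The core of an antioxidant response element is written TGACNNNGC, or GCNNNGTCA when read on the other strand. Letters of this kind were searched in the 1000 bases upstream of the RefSeq starts of 9 of the 10 genes, on GRCh38 and on both strands. The stretches below are shown because they stand upstream of the 3 members that were higher under R4VPL3-1 than under DMSO and, for comparison, of BACH1, which did not pass the test. Each is printed 5′ to 3′ on the strand of its gene, with the match in capitals.
NQO1: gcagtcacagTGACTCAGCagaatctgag
OSGIN1: agacaatctgTGACTTGGCcccagttttc
MAFF: cttccaggggGCGGGGTCAtacgggggcg
BACH1: gggagggttgGCGCGGTCAgggccgcggg
The NQO1 stretch lies at chr16:69726997-69727025, 455 bases before the start of this minus-strand gene and in the first exon of the divergent noncoding gene NQO1-DT. That of OSGIN1 lies at chr16:83952673-83952701, 557 bases before the start and within an intron of a longer OSGIN1 transcript. The MAFF match, on the strand opposite to the gene, lies at chr22:38201862-38201890, 122 bases before 1 of its starts, in an exon of a MAFF transcript with a retained intron. The BACH1 match, also on the opposite strand, lies at chr21:29298988-29299016 in an intron, 377 bases before 1 of its starts. A match is common: 31.9% of the 35116 upstream windows of this length in the RefSeq table held at least 1. This share is of windows, not of genes, and MAFF, KEAP1 and BACH1 also had windows of other starts without a match. KEAP1 had 2 matches, 31 and 54 bases before 1 of its starts, and no match was in the windows of NFE2L2, NFE2L1, CUL3 and MAFG.

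Sequencing depth was 26435568 to 32085626 reads per library (median 28165279), as recovered from the deposited values. A normalized count is a gene's reads divided by a size factor of its library, so it is not corrected for transcript length. Differences were tested with limma on log2(normalized count + 1) over 15230 genes in a fit of all 9 libraries, and a gene was called where the p adjusted after Benjamini and Hochberg was 0.05 or less. For a single gene, an exact permutation test of 3 libraries against 3 reaches 0.1 at the lowest, so none is given. The lineage transcription factor genes SOX10 and MITF were present in every library, while the pigment gene MLANA was listed at 0. The summed melanocytic markers, of which 6 of 9 were tested, were at 21213 to 23052 normalized counts in DMSO, 12374 to 15284 in VHL-r and 10968 to 13185 in R4VPL3-1; epithelial markers summed to 251 to 394, leukocyte markers to 8.56 to 26.9 and endothelial markers to 6.42 to 13.3 over all libraries. SOX10 alone made up most of the melanocytic sum, at means of 17547 in DMSO, 10200 in VHL-r and 8405 in R4VPL3-1. In each contrast with DMSO, 2 of the 6 tested melanocytic markers were called lower and 1 higher. Of all tested genes, 11.8% were called lower and 13.1% higher with R4VPL3-1, and 9.51% and 10.3% with VHL-r. In R4VPL3-1 against VHL-r, 1 of the 6 was called lower, beside 0.729% of all tested genes, and 0 higher, beside 1.14%. The marker called there was SOX10 (log2 -0.28, limma adjusted p = 0.00951). The part of all these markers in the differences below was not tested. In RNA from a whole culture, fewer cells with a transcript and less of it per cell cannot be told apart.

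In R4VPL3-1 against VHL-r, 2 of the 10 members were called higher (OSGIN1 and MAFF), where 1.14% of all tested genes were. The limma fit called 0 members lower there (background 0.729%), as did edgeR and DESeq2, and 1 was lower at an unadjusted p under 0.05. In R4VPL3-1 against DMSO, 3 were called higher (OSGIN1, MAFF and NQO1) and 2 lower (NFE2L2 and MAFK), against 13.1% of all tested genes higher and 11.8% lower. OSGIN1 was the 1 member called in VHL-r against DMSO, where 10.3% of all tested genes were called higher and 9.51% lower. No member was called lower by limma in that contrast, but 1 was by edgeR and by DESeq2 (MAFK) and 2 were at an unadjusted p under 0.05. The comparisons with DMSO share their control libraries.

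**Figure D1:**
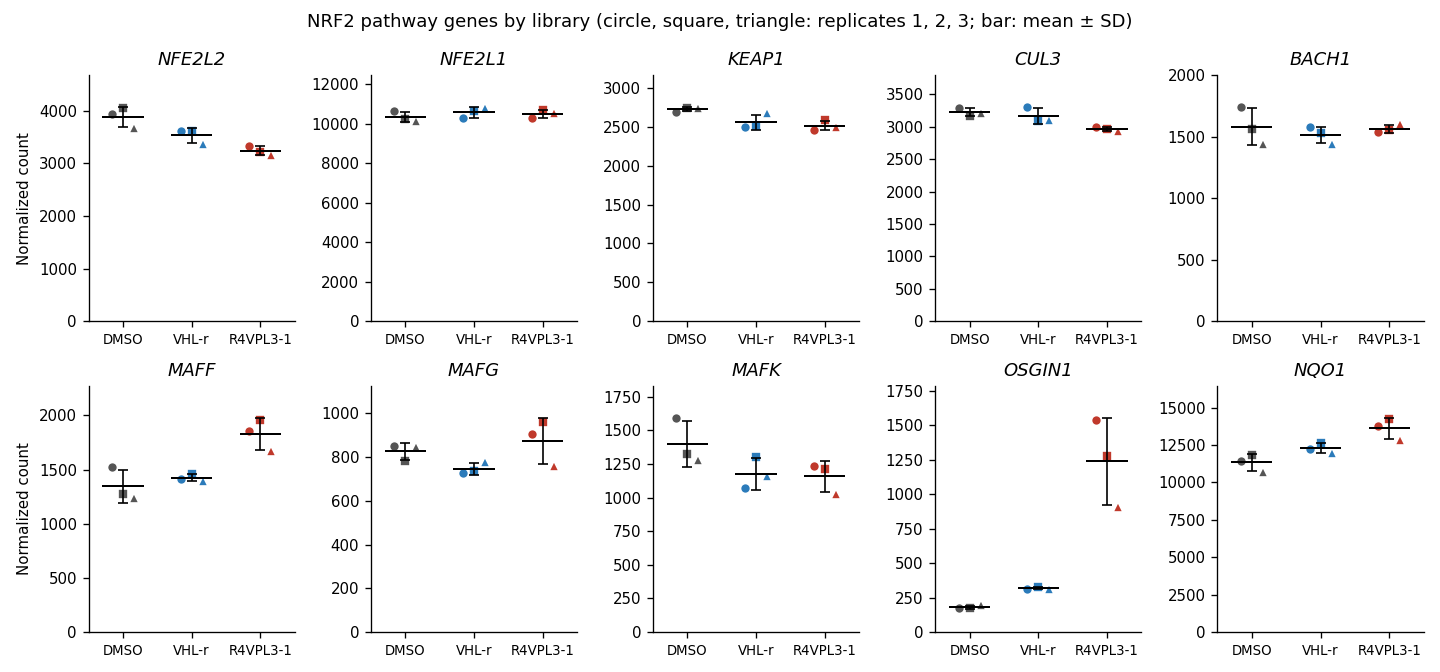
Normalized counts of the 10 genes in each of the 9 libraries, by treatment on the horizontal axis, with circles, squares and triangles for replicates 1, 2 and 3 and bars for the mean ± SD (n = 3); each panel has its own vertical axis starting at 0. OSGIN1 stands apart, at 173 to 194 in DMSO, 314 to 330 in VHL-r and 904 to 1533 in R4VPL3-1, while NFE2L2 is lower with each compound.

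NFE2L2 itself was lower, not higher, in the treated cells. Its transcript (ENSG00000116044, chromosome 2, 177218667 to 177392756) was at 3933, 4044 and 3676 normalized counts in the 3 DMSO libraries, at 3612, 3616 and 3371 in VHL-r and at 3334, 3222 and 3164 in R4VPL3-1. The 3 groups did not overlap, with DMSO highest and R4VPL3-1 lowest. R4VPL3-1 against DMSO gave -0.26 on the log2 scale (standard error 0.049, limma adjusted p = 3.65e-04), and the level fell by 16.5%. For VHL-r against DMSO the log2 difference was -0.14 with a limma adjusted p of 0.0534, just outside the threshold; 5 of 21 alternative analyses called it, over which the adjusted p ran from 0.0235 to 0.235. Between the compounds it was -0.12, with a 95% confidence interval from -0.23 to -0.02 and a limma adjusted p of 0.326. On the same strand, exons of the gene ENSG00000213963 cover 13.6% of NFE2L2's exon bases, and htseq-count assigns no read that lies on both genes.

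NFE2L1, whose product NRF1 is held in the endoplasmic reticulum and activates proteasome genes once it is cut free, was the most abundant regulator per kilobase of transcript. Its levels were 10141 to 10632 normalized counts in DMSO, 10283 to 10814 in VHL-r and 10285 to 10699 in R4VPL3-1, and the ranges overlapped. All 3 contrasts lay between -0.01 and 0.03 on the log2 scale, none was called, and the 95% interval of the difference between the compounds was -0.09 to 0.07.

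Among the genes that hold NRF2 back, KEAP1, CUL3 and BACH1 were not called in any contrast. KEAP1 (ENSG00000079999, chromosome 19, 10486125 to 10503558) was at 2691, 2741 and 2741 normalized counts in DMSO, at 2491, 2503 and 2669 in VHL-r and at 2461, 2582 and 2500 in R4VPL3-1. Every treated library was below every DMSO library, but the log2 differences of -0.12 for R4VPL3-1 and -0.09 for VHL-r did not pass (limma adjusted p = 0.0773 and 0.185). The compounds overlapped, with a difference of -0.02 and a 95% interval from -0.12 to 0.08. CUL3, the scaffold of many ligases besides this one, was at 3168 to 3292 in DMSO, 3084 to 3305 in VHL-r and 2929 to 3004 in R4VPL3-1. The R4VPL3-1 libraries were below all others, by 0.12 (log2) from DMSO, with a limma adjusted p of 0.0581 that 3 of 21 alternatives brought under the threshold (range 0.0417 to 0.174). BACH1 was at 1442 to 1743 in DMSO, 1441 to 1577 in VHL-r and 1543 to 1604 in R4VPL3-1, overlapping throughout, and its log2 difference between the compounds was 0.05 (95% interval -0.08 to 0.18).

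Relative to BACH1, NFE2L2 was lowest under R4VPL3-1. The ratio of the normalized counts was 2.26, 2.58 and 2.55 in DMSO, 2.29, 2.37 and 2.34 in VHL-r and 2.16, 2.07 and 1.97 in R4VPL3-1, so that the R4VPL3-1 libraries lay below all 6 others. For NFE2L2 relative to KEAP1 the ratios overlapped, at 1.34 to 1.48 in DMSO, 1.26 to 1.45 in VHL-r and 1.25 to 1.35 in R4VPL3-1. Both ratios are descriptions without a test.

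**Figure D2:**
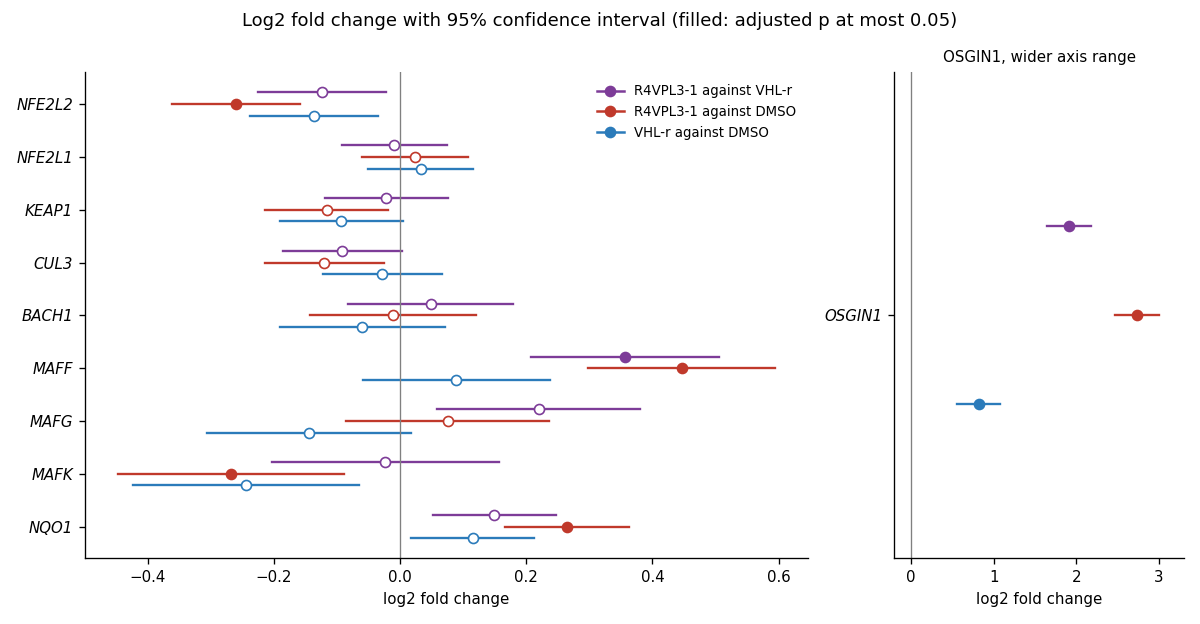
Log2 fold changes (horizontal axis) of the 10 genes in the 3 contrasts, with 95% confidence intervals from limma; filled points have an adjusted p of at most 0.05. OSGIN1 has a panel with a wider axis range, from 0.82 in VHL-r against DMSO to 2.73 in R4VPL3-1 against DMSO, while every other point lies between -0.27 and 0.45.

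The small MAF genes did not move together. MAFF (ENSG00000185022, chromosome 22, 38200767 to 38216507) is the small MAF gene known to respond to stress signals. It was at 1520, 1274 and 1241 normalized counts in DMSO, at 1418, 1463 and 1395 in VHL-r and at 1859, 1962 and 1668 in R4VPL3-1. All R4VPL3-1 libraries were above all others, and DMSO and VHL-r overlapped. MAFF rose by 0.36 on the log2 scale against VHL-r (standard error 0.071, limma adjusted p = 0.00586, 28.1% higher) and by 0.45 against DMSO (limma adjusted p = 7.24e-05). Without R4VPL3-1 replicate 2 the difference from VHL-r was 0.31 with a limma adjusted p of 0.0638, the highest over its 21 alternatives, which reached down to 2.97e-04. VHL-r against DMSO gave 0.09, with a 95% interval from -0.06 to 0.24.

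MAFK (ENSG00000198517, chromosome 7, 1530702 to 1543043) went the other way. It was at 1593, 1324 and 1277 normalized counts in DMSO, at 1069, 1304 and 1161 in VHL-r and at 1237, 1212 and 1028 in R4VPL3-1. The R4VPL3-1 libraries were below all DMSO libraries, and VHL-r replicate 2 lay within the DMSO range. MAFK fell by 0.27 on the log2 scale in R4VPL3-1 against DMSO (standard error 0.086, limma adjusted p = 0.0259). That call was lost without DMSO replicate 1 (-0.17, adjusted p = 0.176), the library with the highest value, without R4VPL3-1 replicate 3 (-0.18, adjusted p = 0.134) and with limma's robust option (adjusted p = 0.0538); its adjusted p ran from 0.00867 to 0.176 over all alternatives. VHL-r against DMSO was of like size, -0.24, with a limma adjusted p of 0.0505, and 9 of 21 alternatives called it (0.0194 to 0.283). The compounds differed by -0.02, with a 95% interval from -0.20 to 0.16.

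MAFG, the third small MAF gene, was at 851, 782 and 845 normalized counts in DMSO, at 729, 734 and 778 in VHL-r and at 905, 960 and 757 in R4VPL3-1. Its R4VPL3-1 libraries were spread widest, and replicate 3 lay below every DMSO library. No contrast was called, and the log2 difference between the compounds was 0.22 (95% interval 0.06 to 0.38, limma adjusted p = 0.236). Without R4VPL3-1 replicate 3 it was 0.32 and was called, with a limma adjusted p of 0.0136, the lowest of its alternatives, which ran up to 0.662.

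On a scale per kilobase of the canonical transcript, which lets levels of different genes be compared, the summed small MAF level was 1143 ± 118 normalized counts per kilobase in DMSO, 1097 ± 45.9 in VHL-r and 1286 ± 115 in R4VPL3-1 (SD, n = 3). The libraries of each compound overlapped those of DMSO, while the lowest R4VPL3-1 library, at 1156, was just above the highest VHL-r library, at 1147. Its make-up differed between the treatments. MAFF made up 50.04, 49.6 and 49.0% of it in DMSO, 56.5, 53.7 and 54.2% in VHL-r and 59.0, 60.1 and 60.8% in R4VPL3-1. MAFK made up 36.8, 36.2 and 35.4% in DMSO, 29.9, 33.6 and 31.7% in VHL-r and 27.6, 26.1 and 26.3% in R4VPL3-1. For each of these shares the 3 groups did not overlap, with VHL-r between the other groups. MAFG's share was 12.6 to 15.6% over all 9 libraries and overlapped. Without division by length MAFF's share was lower, at means of 37.7, 42.6 and 47.4% in DMSO, VHL-r and R4VPL3-1, in the same order. The shares are a description with no test, and a share rises when another member falls. No stretch of 100 bases is common to the exons of the small MAF genes, so their reads are not shared.

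The target gene OSGIN1, which encodes an oxidative stress-induced growth inhibitor, showed the greatest differences of the 10 members. OSGIN1 (ENSG00000140961, chromosome 16, 83931311 to 83966332) was at 173, 176 and 194 normalized counts in DMSO, at 314, 330 and 315 in VHL-r and at 1533, 1272 and 904 in R4VPL3-1. The 3 groups were far apart, and R4VPL3-1 replicate 3 was the lowest of its group. OSGIN1 rose 1.76-fold with VHL-r (log2 0.82, standard error 0.13, limma adjusted p = 6.81e-05) and 6.65-fold with R4VPL3-1 against DMSO (log2 2.73, limma adjusted p = 1.16e-12). R4VPL3-1 was 3.77-fold above VHL-r (log2 1.91, limma adjusted p = 2.83e-09), and all 21 alternatives called each of these contrasts. A neighbor on the same strand, MLYCD, covers 8.22% of the exon bases of OSGIN1.

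NQO1 (ENSG00000181019, chromosome 16, 69706996 to 69726668), a quinone reductase and standard marker of NRF2 activity, was already abundant in the control. It was at 11445, 11851 and 10729 normalized counts in DMSO, at 12232, 12642 and 11960 in VHL-r and at 13789, 14222 and 12862 in R4VPL3-1. The groups did not overlap and had the same order as those of OSGIN1, within a far narrower range. NQO1 rose by 20.1% in R4VPL3-1 against DMSO (log2 0.26, standard error 0.047, limma adjusted p = 2.16e-04). The log2 difference from VHL-r was 0.15 (95% interval 0.05 to 0.25, limma adjusted p = 0.148), and VHL-r against DMSO gave 0.12 (limma adjusted p = 0.0936). Without R4VPL3-1 replicate 3 the difference between the compounds was 0.19 and was called (adjusted p = 0.0352; the alternatives ran from 0.0352 to 0.503).

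The order of levels per kilobase was almost the same in every treatment. In DMSO it ran from NQO1 at 4499 ± 225 normalized counts per kilobase through NFE2L1 at 2138 ± 53.1, NFE2L2 at 1588 ± 77.1, KEAP1 at 1062 ± 11.1, MAFF at 567 ± 64.2, CUL3 at 477 ± 9.26, MAFK at 414 ± 50.4, BACH1 at 282 ± 26.98 and MAFG at 163 ± 7.51 to OSGIN1 at 94.2 ± 5.72 (SD, n = 3). Only CUL3 and MAFK, neighbors in this order, overlapped in their libraries. OSGIN1 was last in DMSO, passed MAFG in VHL-r at 166 ± 4.52, and in R4VPL3-1 reached 643 ± 165, where its libraries overlapped those of MAFF at 771 ± 62.8 and lay above those of CUL3 at 439 ± 5.53.

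The genes whose levels followed a member most closely over the 9 libraries are given by Pearson's r on the log2 scale, as a description, since all points share their treatments. For OSGIN1 they were DDIT3 (r = 0.994), which encodes the stress factor CHOP, ANKRD37 (r = 0.994) and BAG3 (r = 0.994), a co-chaperone. DDIT3 was at 275 ± 22.3 normalized counts in DMSO, 384 ± 18.2 in VHL-r and 1241 ± 268 in R4VPL3-1 (SD, n = 3), the same order as OSGIN1. For MAFF they were PPP1R15A (r = 0.980), which encodes GADD34, JOSD1 (r = 0.968) and the efflux pump gene ABCC1 (r = 0.966). PPP1R15A was at 6097 ± 689 in DMSO, 6464 ± 145 in VHL-r and 9613 ± 1285 in R4VPL3-1, again with DMSO and VHL-r overlapping. For MAFK they were ABR (r = 0.968), the proteasome subunit gene PSMC4 (r = 0.953) and TMEM201 (r = 0.947).

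Beyond OSGIN1 and NQO1, a list of 53 genes known as NRF2 targets was examined, of which 46 were tested. The list was written with earlier results of these data known, so its shares are a description and no independent evidence. In R4VPL3-1 against VHL-r, 7 of 46 were called higher, a share of 15.2% beside 1.14% of all tested genes, with a median log2 fold change of 0.07 beside -0.01. By limma, edgeR and DESeq2 0 were called lower, and 1 was at an unadjusted p under 0.05. Those 7 were HMOX1 (3.88), which opens the heme ring, NMRAL2P (2.44), CHAC1 (1.68), which breaks down glutathione, GCLM (0.53), FTL (0.43), the ferritin light chain, TXNRD1 (0.31), thioredoxin reductase, and SQSTM1 (0.30), which encodes the KEAP1-binding adaptor p62. In the same contrast edgeR called 8 higher and DESeq2 6, and DESeq2 did not call TXNRD1. In the list part that holds NMRAL2P and SQSTM1, DESeq2 called 1 gene higher where limma called 2. CHAC1 is better known as a target of ATF4 than of NRF2. The pseudogene NMRAL2P was at 7.35 to 9.22 normalized counts in VHL-r and 35.3 to 66.3 in R4VPL3-1; the table holds 2 rows of this name and the higher one was used.

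Against DMSO, R4VPL3-1 gave 17 of 46 higher (37.0% beside 13.1% of all tested genes) and 1 lower (2.17% beside 11.8%), with a median of 0.12. VHL-r gave 5 higher and 1 lower, with a median of 0.03, and its share called higher, 10.9%, was near the 10.3% of all tested genes. The gene called lower in both was TSKU, by 0.42 with R4VPL3-1 and 0.53 with VHL-r. By group, the genes called higher in R4VPL3-1 than in DMSO were 5 of 8 tested for glutathione, 2 of 4 of the thioredoxin system, 3 of 7 of heme and iron, 2 of 6 that supply NADPH, 3 of 12 of detoxification and export and 2 of 9 others. In VHL-r the genes called higher were CHAC1 (0.94), GCLC (0.45), EPHX1 (0.27), IDH1 (0.26) and SQSTM1 (0.20). CHAC1 and SQSTM1 were called higher in all 3 contrasts, as OSGIN1 was.

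The subunits of glutamate-cysteine ligase, the enzyme that limits glutathione synthesis, differed in this respect. The catalytic subunit gene GCLC was at 1509, 1619 and 1514 normalized counts in DMSO, at 2198, 2119 and 2025 in VHL-r and at 2407, 2161 and 2099 in R4VPL3-1. Both compounds stood above DMSO and overlapped each other, with a log2 difference between them of 0.07 (95% interval -0.05 to 0.19). The modifier subunit gene GCLM was at 2056, 2034 and 1949 in DMSO, at 2237, 2186 and 1811 in VHL-r and at 3374, 2930 and 2685 in R4VPL3-1. Here VHL-r overlapped DMSO and R4VPL3-1 stood above both, 0.53 (log2) above VHL-r with a limma adjusted p of 1.96e-04.

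**Figure D3:**
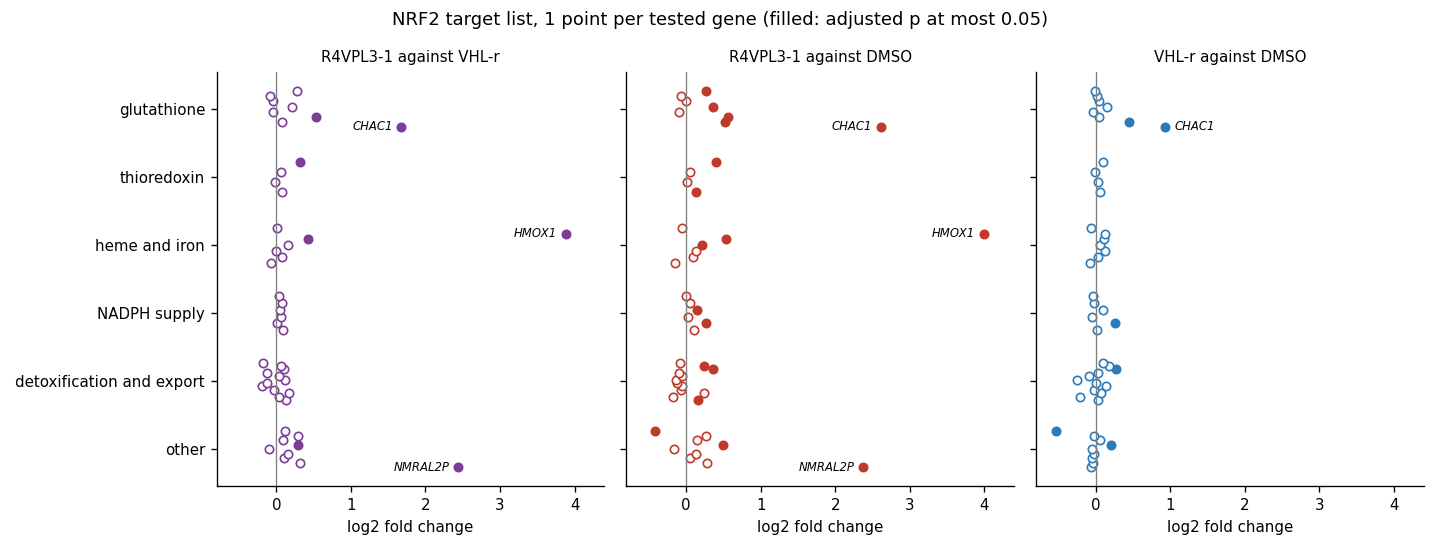
Log2 fold changes (horizontal axis) of the 46 tested NRF2 target genes in 3 contrasts, 1 point per gene, grouped by role; filled points have a limma adjusted p of at most 0.05. HMOX1 is farthest from 0, at 3.88 against VHL-r and 4.00 against DMSO in cells with R4VPL3-1, and in VHL-r against DMSO no point exceeds CHAC1 at 0.94.

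Genes that govern the turnover of NRF2 and KEAP1 made up 2 lists of 24 tested genes in all. In R4VPL3-1 against DMSO 2 were called higher (8.33% beside 13.1% of all tested genes) and 1 lower (4.17% beside 11.8%), and in VHL-r against DMSO 3 higher (12.5% beside 10.3%) and 1 lower (4.17% beside 9.51%). Of 8 tested genes for the CUL3 ligase and its neddylation, 0 were called by limma, edgeR or DESeq2 in either contrast with R4VPL3-1. At an unadjusted p under 0.05 there were 0 between the compounds and 1 higher and 1 lower against DMSO. KLHL12, which encodes another CUL3 adaptor, was higher in VHL-r against DMSO (0.17, limma adjusted p = 0.0192). Of 16 genes for KEAP1-independent turnover and for proteins that bind KEAP1, SQSTM1 was called higher in all 3 contrasts. HERC2 was higher (0.25) and FBXW11 lower (-0.13) in R4VPL3-1 against DMSO, while GSK3B was higher (0.16) and PALB2 lower (-0.31) in VHL-r against DMSO. RNF4, the ligase bound by the PROTAC-like compound, was at 372 to 466 normalized counts in DMSO, 408 to 448 in VHL-r and 382 to 444 in R4VPL3-1, with overlapping libraries and no call.

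Of 7 genes for the processing of NRF1, 3 were called higher in each contrast with DMSO, where 13.1% of all tested genes were with R4VPL3-1 and 10.3% with VHL-r. DDI2, the protease that cuts NRF1, was at 2225 to 2294 normalized counts in DMSO, 2775 to 3012 in VHL-r and 2530 to 2929 in R4VPL3-1, and both treated groups stood above DMSO (log2 0.35 and 0.25, limma adjusted p = 8.74e-05 and 0.00192). NGLY1, which removes sugar chains from NRF1, was higher by 0.21 with VHL-r and 0.30 with R4VPL3-1. SEL1L (0.16) was called in VHL-r against DMSO and OGT (0.24) in R4VPL3-1 against DMSO, and between the compounds limma, edgeR and DESeq2 called 0 of 7, as did an unadjusted p under 0.05. Of 29 tested proteasome subunit genes, which NRF1 activates, 0 were called by limma, edgeR, DESeq2 or an unadjusted p under 0.05 in VHL-r against DMSO or between the compounds. In R4VPL3-1 against DMSO 1 was called lower, a share of 3.45% beside 11.8% of all tested genes. It was PSMD12 (-0.12, limma adjusted p = 0.0398), which edgeR did not call.

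Among other genes of the CNC and MAF families, MAF, MAFA and NFE2L3 were called in both contrasts with DMSO. MAF, a large MAF factor with an activating region, was at 1517 to 1600 normalized counts in DMSO, 784 to 973 in VHL-r and 773 to 863 in R4VPL3-1. It fell by 0.85 on the log2 scale with VHL-r and by 0.93 with R4VPL3-1 (limma adjusted p = 2.47e-08 and 3.60e-09), and the compounds overlapped. MAFA, another large MAF gene, was at 3.63 to 6.89 in DMSO, 35.7 to 65.6 in VHL-r and 41.8 to 58.9 in R4VPL3-1, which is low in every group but separate from DMSO (log2 2.98 and 3.07). NFE2L3, the closest relative of NFE2L1, fell by 0.29 with VHL-r and by 0.35 with R4VPL3-1.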

How the data were processed

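A375R cells were treated with DMSO, VHL-r or R4VPL3-1 (3 libraries each), and poly(A) RNA was sequenced as strand-specific single reads. Alignment by the authors was to GRCh38 with STAR, htseq-count (reverse mode) gave reads per gene, and the authors deposited a normalized signal, the counts divided by DESeq2 (1.36.0) size factors and rounded. htseq-count drops reads on exons of several genes of the same strand. Whole reads were recovered from the value of 1 read per library (at least 99.974% of values above 0 within 0.006 of a whole read). No library pair differed by as little as sampling noise.

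limma (3.58.1, R 4.3.3) was run with the trend option on log2(value + 1), as the values are not counts, over 15230 genes with a mean of at least 10. The fit had a single factor and all 9 libraries; it recovered known changes when tested on simulated data. Fold changes on this scale understate those of low genes. The alternatives were edgeR (4.0.16) and DESeq2 (1.42.0) on recovered reads, a fit of the 6 libraries of each contrast, a replicate block, limma's robust option, rescaling by TMM or to the upper quartile, a pseudocount of 0.1 or 5, a filter at a mean of 50 or none, a threshold of 0.01, and leaving out each library in turn. Coordinates are those of the table, on GRCh38, and exons, strand and canonical transcript length came from GENCODE.

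The members and lists were chosen with earlier results of these data known. Named are all members, list genes called in R4VPL3-1 against VHL-r, up to 4 examples per list and contrast by absolute log2 fold change, and the 3 genes most correlated with each of the 3 members of largest change. RNF4, GCLC, other genes of the lists and the ratios were named beyond this after their values were seen. Markers of melanocytic, mesenchymal, epithelial, leukocyte and endothelial cells were summed, and the mesenchymal sum was 10680 to 13783. A result for 1 listed gene is not reported here.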

Additional observations from a re-analysis of the deposited data

How the results depend on the processing

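Over 21 alternatives, 595 of 630 member fold changes kept their direction and their side of the threshold; 21 gained a call, 5 lost one and 9 changed sign, all of the last being differences that were never called. Members called in R4VPL3-1 against VHL-r numbered 1 to 4 with 1 library left out (2 with all), fewest without R4VPL3-1 replicate 2 and most without R4VPL3-1 replicate 3. In R4VPL3-1 against DMSO they numbered 4 to 6 over all alternatives (5 in the analysis reported). In VHL-r against DMSO there was 1, but 2 with a pseudocount of 5, a mean of at least 50, the robust option, edgeR, DESeq2 or only the 6 libraries compared, and 1 to 3 with 1 library left out, most without DMSO replicate 3 or R4VPL3-1 replicate 3; the additional genes were MAFK and NFE2L2. NRF2 target calls stayed within 1.5 times, at 6 to 9, 13 to 20 and 6 to 8 in the 3 contrasts. Sign changes came with upper quartile rescaling for NFE2L1 between the compounds (3.76e-04) and BACH1 in R4VPL3-1 against DMSO (0.0062), and with a library left out for NFE2L1 (-0.030 to 0.0067), KEAP1 (-0.042 to 0.0097) and MAFK (-0.091 to 0.061) between the compounds and for BACH1 against DMSO with R4VPL3-1 (-0.077 to 0.060) and VHL-r (-0.13 to 0.012). The cause was not tested. MAFF's share of the small MAF level, not divided by length, was 37.7, 42.6 and 47.4%, an alternative chosen after seeing the data.

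The sample labels give replicate numbers but no day. The column headers of the deposited values carry a date, without saying what was done on it. Deviations of same-numbered libraries correlated at -0.0056 to 0.121 over 9 pairs, and those of libraries with different numbers at -0.148 to 0.0982. Of 9 libraries, 6 correlated best with their own number. The reported fit did not take the numbers as pairs, and whether same-numbered libraries form pairs was not tested. With a replicate block the members called were 3, 6 and 4 in R4VPL3-1 against VHL-r, R4VPL3-1 against DMSO and VHL-r against DMSO, with NQO1 between the compounds (limma adjusted p = 0.0382) among those added, and the NRF2 targets called were 9, 19 and 7. Depth did not limit the members, the lowest of which was OSGIN1 at 173 normalized counts; for NMRAL2P and MAFA counting error is larger. Values above are RNA at 1 time and 1 dose.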

Other observations

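Of the NRF2 target list, 7 genes were not tested because their mean was under 10 normalized counts. GGT1, GPX2 and ABCB6 were listed at 0 in every library, and AKR1B10, the most abundant of the others, had means of 5.50 in DMSO, 4.77 in VHL-r and 3.93 in R4VPL3-1. SRXN1, the sulfiredoxin gene and a common NRF2 target, was listed at 0 in every library but R4VPL3-1 replicate 1, where it was at 0.93. Genes that every cell uses, NEDD8 and PSMA2, were also listed at 0 in all 9 libraries, so a value of 0 in this table does not show that a gene was silent.

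R4VPL3-1 replicate 3 had the lowest value of its group for NFE2L2, CUL3, MAFF, MAFG, MAFK, OSGIN1 and NQO1. It was the highest of its group for BACH1, at 1604 normalized counts, and not the lowest for KEAP1 or NFE2L1. For NFE2L2, MAFF and NQO1, replicate 3 was the lowest in DMSO and in VHL-r as well. R4VPL3-1 replicate 3 was also the lowest for HMOX1, at 5951 normalized counts beside 13646 and 11465, and for CHAC1, at 550 beside 981 and 789. The cause was not tested.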
